A study of Homo sapiens with 9 samples.

Results

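The genes described here encode the machinery of endocytosis, caveolae and early endosomes, and 41 of them were followed across fractions of migrating human mesenchymal stem cells. They were chosen by name, as 3 clathrin chains, 5 subunits of the AP-2 adaptor, 3 dynamins, 5 coat accessory proteins, 8 scaffolds and membrane-shaping proteins, 4 caveola proteins, 4 EHD proteins, 2 early endosome tethers, 2 ESCRT-0 subunits, 3 retromer subunits and 2 cargo receptors. All 41 were matched by symbol in a table of 62709 genes, and all 41 were among the 19426 genes that passed the low-count filter and were tested. The fewest reads fell on DNM3, with 317 counts summed over the 9 libraries.

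In clathrin-mediated endocytosis, the AP-2 adaptor gathers receptors at the plasma membrane, clathrin heavy and light chains polymerise over it, accessory and curvature-forming proteins bend the membrane, and dynamin cuts the vesicle off. Caveolae are flask-shaped pits built from caveolins and cavins, which are abundant in mesenchymal cells, and EHD2 sits at their neck. Internalised cargo reaches early endosomes, from which ESCRT complexes send it to degradation and retromer sends it back to the surface or the Golgi.

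The cells were hTERT-MSC, a line of adipose mesenchymal stem cells immortalised with telomerase. All of them received PDGF-BB, a growth factor that attracts mesenchymal cells, and the comparisons ask how the RNA of protrusions differs from that of the rest of the cell. The pseudopodia group (3 libraries) held processes that serum-starved cells had pushed through pores of 3 µm towards medium with 50 ng/mL PDGF-BB for 1 h, after 2 h on the insert, and that were scraped from the lower side. The cell body group (3 libraries) held material then scraped from the upper side of the membrane, and the whole cell group (3 libraries) carries the same treatment label with no separate account of its collection. All 3 groups therefore share the cell line and the growth factor, and no unstimulated cells are among them. Nothing in the labels says that the libraries of a group came from different cultures, and a p-value here therefore reflects only how much these libraries vary, which may be technical variation.

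Total counts ran from 55469030 to 83894938 per library. Replicates varied over all genes with a biological coefficient of variation of 33% in pseudopodia, 17.6% in cell bodies and 5.08% in whole cells. All 8 listed mesenchymal markers averaged at least 1 CPM (normalised counts per 1000000 reads) in each group, with summed levels of 16356.6 to 21655.4 CPM in pseudopodia, 26769.1 to 33567.7 CPM in cell bodies and 27690.9 to 28865.8 CPM in whole cells. Most of each sum was COL1A1, which averaged 17404.9, 24370.9 and 24383.6 CPM in the same order. All 8 were lower in pseudopodia than in cell bodies (adjusted p under 0.05, edgeR), beside 19.9% of all genes. All but PDGFRB were lower than in whole cells, beside 33.1% of all genes. The lowest in pseudopodia was ALCAM, at 16.59 CPM there, 78.34 CPM in cell bodies and 255.3 CPM in whole cells. Of 6 adipocyte markers, PLIN1 alone averaged at least 1 CPM, in whole cells, FABP4 had 0 counts in every library, and the list summed to 0.788 to 1.25 CPM in pseudopodia, 0.651 to 0.962 CPM in cell bodies and 1.32 to 1.58 CPM in whole cells. Of 6 endothelial markers 4 averaged at least 1 CPM in each group, and KDR and CLDN5 were at 0 in cell bodies and whole cells. In pseudopodia, cell bodies and whole cells, TEK averaged 46.19, 69.35 and 56.21 CPM and VWF 14.65, 5.529 and 1.316 CPM. In the same order, PECAM1 averaged 9.979, 8.266 and 3.452 CPM and CDH5 2.802, 12.24 and 14.75 CPM. The endothelial sum was 63.8 to 80.1 CPM in pseudopodia, 76.1 to 107 CPM in cell bodies and 74.8 to 77.1 CPM in whole cells. Of 6 haematopoietic markers 2 averaged at least 1 CPM, with PTPRC under 1 CPM in every library. These 2 were CD34, at 69.22, 66.19 and 65.12 CPM in the same order of groups, and CD14, at 3.525, 11.49 and 2.371 CPM. The haematopoietic sum was 65.1 to 80.8 CPM in pseudopodia, 73.2 to 83.5 CPM in cell bodies and 67 to 69.5 CPM in whole cells. Of 6 epithelial markers 3 averaged at least 1 CPM, with EPCAM under 1 CPM in every library. These 3, in the same order of groups, were KRT8 at 157.1, 124.6 and 94.56 CPM, KRT18 at 149.2, 143.7 and 57.0 CPM, and CLDN4 at 3.636, 4.33 and 3.665 CPM. The epithelial sum was 258 to 371 CPM in pseudopodia, 258 to 296 CPM in cell bodies and 149 to 163 CPM in whole cells. The part of these markers in the results was not tested. Of 8 RNAs known to gather in protrusions, the summed level was 12863.3 to 13223.8 CPM in pseudopodia, 829.4 to 1037.9 CPM in cell bodies and 1167.8 to 1223.3 CPM in whole cells. Mitochondrially encoded RNAs took 5.89% to 6.91% of counts in pseudopodia, 2.75% to 3.26% in cell bodies and 4.9% to 5.47% in whole cells. Without mitochondrial and ribosomal protein genes, the 41 genes had 11 higher and 4 lower calls in pseudopodia over cell body, 16 and 7 in pseudopodia over whole cell, and 12 and 5 in cell body over whole cell, against 9 and 6, 16 and 9, and 12 and 5 with them. Of all 19430 genes tested in that fit, 3781 were higher and 3735 lower in pseudopodia over cell body. In pseudopodia over whole cell 5594 were higher and 6173 lower, and in cell body over whole cell 3878 and 3836. In bulk fractions like these, a different mix of cells or cell pieces and a different amount of RNA in each cannot be told apart.

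Between pseudopodia and cell bodies the endocytic genes split, with 9 of 41 higher and 6 lower at an adjusted p under 0.05 (edgeR's quasi-likelihood test). Those higher in pseudopodia were CAVIN1, ITSN2, EPN1, SH3GL1, CLTB, ITSN1, AP2S1, HGS and CAVIN3, and the lower ones LRP1, TFRC, CAV1, STAM, CLTC and VPS35. Of all genes tested, 18.6% were called higher and 19.9% lower, while the 41 genes had 22% higher and 14.6% lower, which is near that background. Their median log2 fold change was 0.19, and that of all genes tested was -0.05. With limma on log2(TPM + 1), where TPM are transcripts per 1000000, 4 were higher and 12 lower, against 11.9% and 30.4% of all genes tested. With limma-voom and sample weights, 12 were higher and 13 lower, against 26.6% and 30.6% of all genes. With library totals alone in edgeR, 6 were higher and 7 lower than in cell bodies, and 11 were higher and 13 lower than in whole cells. Of all 19426 genes, that scaling called 3066 higher and 4504 lower than in cell bodies. Relative to whole cells it called 4201 higher and 7806 lower. Without cell body replicate 3, 4 of the 41 genes were higher than in cell bodies, beside 2892 of all 20176 genes tested in that fit. Among all genes called, 48.2% were higher in pseudopodia by edgeR and 28.1% on log2(TPM + 1).

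Against whole cells, 16 of the 41 genes were higher in pseudopodia and 9 were lower, with a background of 27.9% higher and 33.1% lower among all genes tested. On log2(TPM + 1) these counts were 10 higher and 17 lower (background 16.6% and 49.9%), and in limma-voom 19 higher and 15 lower (background 36.5% and 42.3%). In cell bodies, 12 were higher and 5 lower than in whole cells, with a background of 18.1% higher and 20.5% lower. On log2(TPM + 1) there were 8 higher and 8 lower (background 13.6% and 30.4%), and in limma-voom 18 higher and 7 lower (background 29.5% and 32.1%). The share of all called genes that were higher was 45.7% in pseudopodia over whole cell, against 25.0% on log2(TPM + 1) and 35% with library totals alone. In cell body over whole cell it was 46.9%, against 30.9% on log2(TPM + 1), 36.0% with library totals and 37.4% with upper-quartile factors. Without whole cell replicate 1, 5 genes were lower in pseudopodia than in whole cells, and without whole cell replicate 3, 7 were higher in cell bodies than in whole cells. Of all genes tested, those fits called 5440 of 19872 lower and 2436 of 20096 higher in the same comparisons. The 3 comparisons share libraries, so their calls are not independent of each other. CLTB, AP2S1, SH3GL1, CAVIN1, CAVIN3 and HGS were called higher in all 3 comparisons. CLTA, AP2M1, SH3KBP1, EHD1 and EHD4 were likewise higher than whole cells in both fractions, and ITSN1, SNX18, CD2AP and EEA1 lower in both. For all these genes the whole cell mean lay outside the range of the pseudopodia and cell body means. A call against whole cells alone therefore does not place an RNA in pseudopodia. The cause was not tested. The 13 genes called in none were AP2A1, AP2B1, DNM1, DNM3, EPN2, EPS15, PICALM, SYNJ1, CAV2, EHD2, EHD3, RABEP1 and VPS29.

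**Figure D1:**
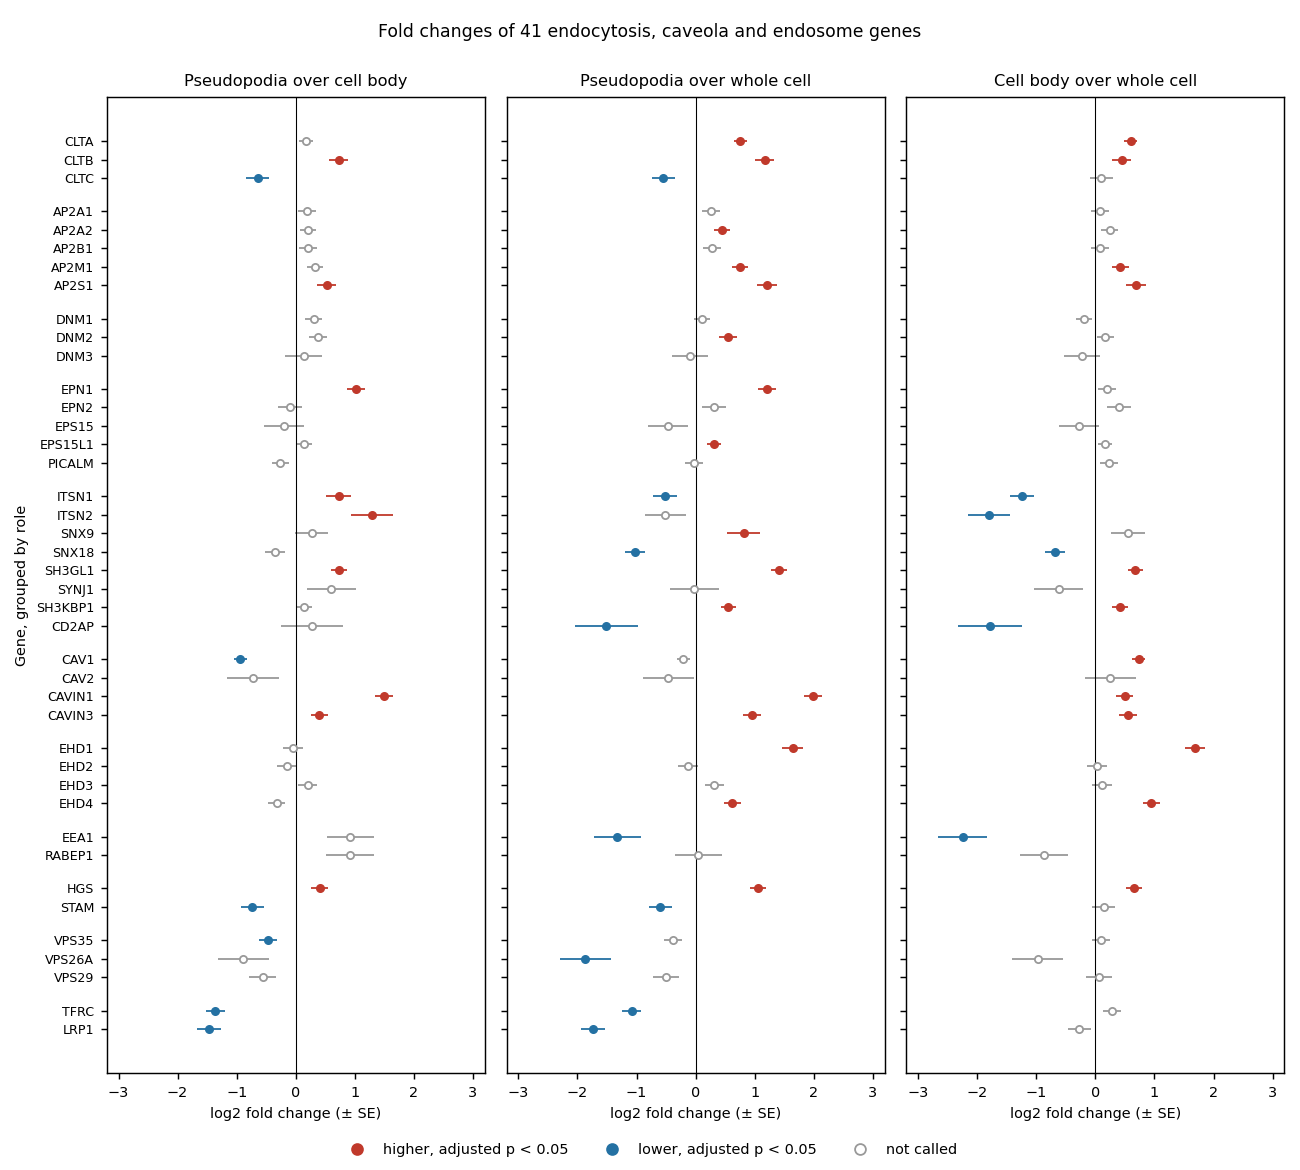
Log2 fold change with its standard error (x axis) for each of the 41 genes (y axis, grouped by role), in pseudopodia over cell body, pseudopodia over whole cell and cell body over whole cell. Filled points passed an adjusted p of 0.05; between pseudopodia and cell body 9 lie to the right and 6 to the left, with CAVIN1 at 1.49 and LRP1 at -1.47.

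Per length of transcript, CAVIN1, EHD2 and CAV1 gave the most RNA of the set in pseudopodia, where the other caveola genes, CAVIN3 and CAV2, averaged 64.5 and 30.3 TPM. CAVIN1 averaged 4034.8 ± 689 TPM in pseudopodia, 1755.5 ± 140 in cell bodies and 1406.4 ± 26.4 in whole cells (SD, n = 3 each). In pseudopodia it stood above every other member, followed by EHD2 at 902.5 ± 161 TPM and CAV1 at 794.6 ± 57.1 TPM, whose libraries overlapped. In cell bodies the order at the top was CAV1 at 1853.4 ± 129 TPM and CAVIN1 at 1755.5 ± 140 TPM, which overlapped, and then EHD2 at 1229.5 ± 198 TPM and LRP1 at 733.1 ± 201 TPM. In whole cells CAVIN1 and EHD2, at 1406.4 ± 26.4 and 1370.9 ± 24.9 TPM, overlapped, while CAV1 at 1259.9 ± 29 TPM and LRP1 at 1002.4 ± 95.6 TPM lay below them. AP2M1 was the most abundant coat gene in all 3 groups, at 324.4 ± 45.9 TPM in pseudopodia, 316.9 ± 13.8 TPM in cell bodies and 266.5 ± 4.79 TPM in whole cells.

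At the low end, DNM3, the dynamin otherwise known from brain and testis, averaged 0.149 ± 0.0581 TPM in pseudopodia, 0.166 ± 0.0147 TPM in cell bodies and 0.220 ± 0.0304 TPM in whole cells. Summed by role, caveola proteins made up 4924.2 ± 624 TPM in pseudopodia, 3728.5 ± 259 TPM in cell bodies and 2769.0 ± 42.9 TPM in whole cells. The sum for the cargo receptors TFRC and LRP1 ran the other way, at 231.1 ± 23.8 TPM in pseudopodia, 776.9 ± 208 TPM in cell bodies and 1043.1 ± 97.7 TPM in whole cells. Both sums followed single genes. CAVIN1 alone averaged 4034.8 TPM in pseudopodia, 1755.5 in cell bodies and 1406.4 in whole cells, while CAV1 was lowest in pseudopodia. LRP1 alone averaged 217.2, 733.1 and 1002.4 TPM in the same order. For retromer the sum was 65.7 ± 22.6 TPM in pseudopodia, 119 ± 7.94 TPM in cell bodies and 155 ± 5.89 TPM in whole cells. These sums are descriptions of the deposited TPM and carry no test. TPM lack the scaling between libraries that the CPM below have, and on log2(TPM + 1) the median of all genes shifted by -0.12 in pseudopodia over cell body and by -0.22 in pseudopodia over whole cell relative to the CPM-based fit.

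**Figure D2:**
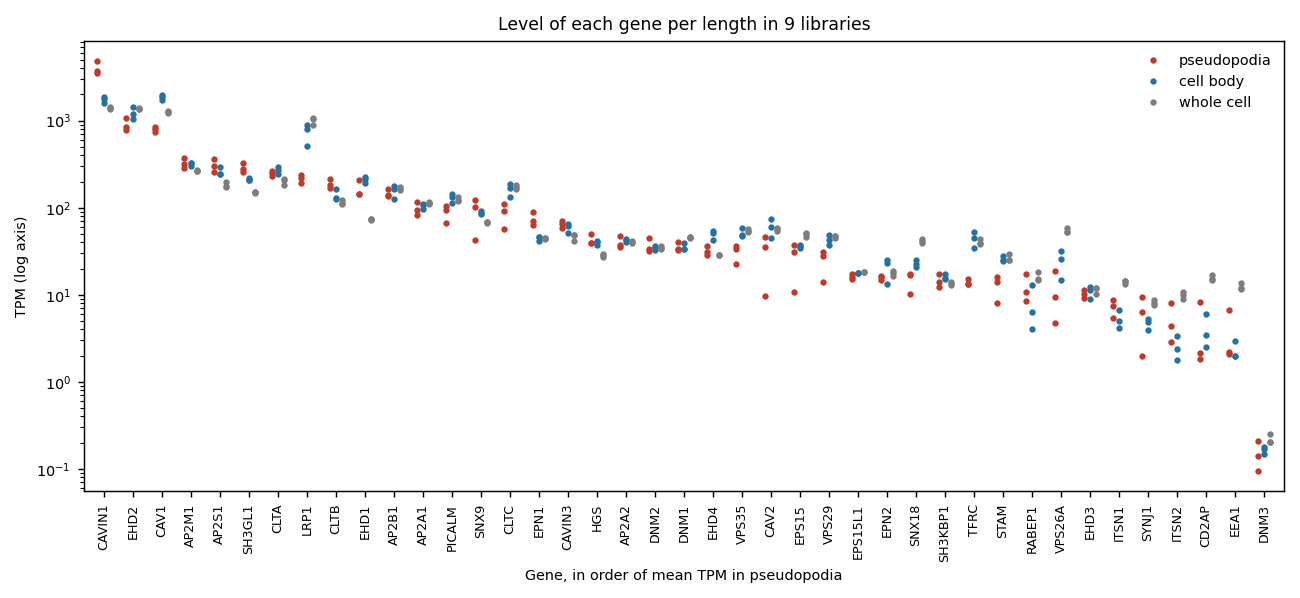
TPM of each gene (log y axis) in the 9 libraries, with genes on the x axis in the order of their mean in pseudopodia and 1 point for each library (red pseudopodia, blue cell body, grey whole cell). CAVIN1 leads in pseudopodia with 4034.8 TPM on average, and LRP1 averages 217.2 TPM there against 733.1 TPM in cell bodies and 1002.4 TPM in whole cells.

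The caveola genes parted in opposite directions. CAVIN1 (chromosome 17, 42402452 to 42423517, minus strand; coordinates here are GRCh38, GENCODE release 29) encodes the cavin that coats caveolae and is needed to form them. It had 3899.7, 3596.9 and 5305.4 normalised CPM in pseudopodia, 1393.8, 1545.8 and 1604.4 CPM in cell bodies, and 1063.3, 1069.3 and 1092.0 CPM in whole cells. Every pseudopodia library was above every cell body library, and every cell body library above every whole cell library. CAVIN1 was 2.82-fold higher in pseudopodia than in cell bodies (log2 fold change 1.49 ± 0.15 SE, adjusted p = 1.96e-05, edgeR) and 3.97-fold higher than in whole cells (log2 1.99 ± 0.15, adjusted p = 1.69e-06). Both calls held under all 23 alternative settings, with log2 fold changes of 1.19 to 1.60 over cell bodies. The smaller rise in cell bodies over whole cells (log2 0.49 ± 0.15, adjusted p = 0.0228) held under 15 of 23 and was lost without cell body replicate 2 or 3 or any whole cell replicate (adjusted p = 0.0542 to 0.073).

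CAV1 (chromosome 7, 116524785 to 116561184, plus strand) encodes caveolin-1, the membrane scaffold of the same pits. It had 957.1, 886.0 and 872.0 CPM in pseudopodia, 1608.7, 1776.5 and 1812.9 CPM in cell bodies, and 1033.0, 1069.1 and 1027.7 CPM in whole cells. The pseudopodia libraries were the lowest and the cell body libraries the highest, with no overlap between any groups. CAV1 fell 1.91-fold in pseudopodia relative to cell bodies (log2 -0.94 ± 0.11, adjusted p = 5.37e-05) and was 1.66-fold higher in cell bodies than in whole cells (log2 0.73 ± 0.11, adjusted p = 0.000519), and both calls held under all 23 settings. Pseudopodia over whole cell gave log2 -0.20 ± 0.11 (adjusted p = 0.122), which was called under 5 settings, among them limma on log2(TPM + 1) (-0.67, adjusted p = 0.000109). The ratio of CAVIN1 to CAV1, looked at after these values were seen and given as a description, was 4.07, 4.06 and 6.08 in pseudopodia, 0.866, 0.870 and 0.885 in cell bodies, and 1.03, 1.00 and 1.06 in whole cells on the CPM scale.

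The other caveola genes were less clear. CAVIN3, another cavin, had 26.37, 28.52 and 34.04 CPM in pseudopodia, 24.55, 19.71 and 23.06 CPM in cell bodies, and 15.65, 16.29 and 13.98 CPM in whole cells. The groups did not overlap, and pseudopodia over whole cell gave log2 0.95 ± 0.15 (adjusted p = 0.000221). The call over cell bodies (log2 0.40 ± 0.15, adjusted p = 0.0498) held under 5 of 23 settings, was lost on leaving out any library but cell body replicate 1 (adjusted p = 0.05 to 0.194), and turned to -0.03 (adjusted p = 0.881) with offsets for GC content and length. With those offsets the calls against whole cells were lost as well, at log2 0.26 (adjusted p = 0.0675) for pseudopodia and 0.29 (adjusted p = 0.0629) for cell bodies. Here and below, such offsets also take out any difference between groups that follows GC content or length. CAV2, the partner of caveolin-1, had 67.46, 86.56 and 19.44 CPM in pseudopodia, 118.6, 71.97 and 95.1 CPM in cell bodies, and 79.86, 82.14 and 77.5 CPM in whole cells. Its pseudopodia libraries differed 4.45-fold among themselves, with replicate 3 far below the others, and no comparison passed the test (adjusted p = 0.228 for pseudopodia over cell body).

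Clathrin light and heavy chains also differed in direction. CLTB, the light chain b, had 104.8, 93.71 and 129.7 CPM in pseudopodia, 77.26, 61.96 and 59.3 CPM in cell bodies, and 46.35, 52.87 and 46.83 CPM in whole cells, with no overlap. It was 1.65-fold higher in pseudopodia than in cell bodies (log2 0.73 ± 0.15, adjusted p = 0.00342) and 2.25-fold higher than in whole cells (log2 1.17 ± 0.16, adjusted p = 7.85e-05), under all 23 settings, though the GC and length offsets brought the second value to 0.55. In cell bodies over whole cells it gave log2 0.44 ± 0.15 (adjusted p = 0.0418), a call that held under 9 of 23 settings and was lost without pseudopodia replicate 1, cell body replicate 1 or 2, or any whole cell replicate (adjusted p = 0.0553 to 0.139).

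CLTC, the heavy chain that forms the legs of the clathrin triskelion, had 328.3, 373.8 and 211.1 CPM in pseudopodia, 391.0, 499.7 and 538.0 CPM in cell bodies, and 453.1, 435.9 and 447.8 CPM in whole cells. Every pseudopodia library was below every other library. CLTC fell 1.56-fold relative to cell bodies (log2 -0.65 ± 0.20, adjusted p = 0.0226) and 1.46-fold relative to whole cells (log2 -0.55 ± 0.20, adjusted p = 0.0301). The first call was lost without cell body replicate 2 or 3 (adjusted p = 0.0649 to 0.0833). The second was lost without any whole cell replicate (adjusted p = 0.0678 to 0.0815) and turned to 0.29 (adjusted p = 0.0505) with GC and length offsets. CLTA, the light chain a, had 185.2, 186.8 and 181.5 CPM in pseudopodia, 178.2, 152.0 and 162.9 CPM in cell bodies, and 108.9, 118.2 and 99.63 CPM in whole cells. It was higher than whole cells in both fractions (log2 0.76 ± 0.12 in pseudopodia, adjusted p = 0.000214, and 0.59 ± 0.12 in cell bodies, adjusted p = 0.00276), while pseudopodia over cell body gave 0.17 ± 0.12 (adjusted p = 0.286). The ratio of CLTB to CLTA, a description, was 0.566, 0.502 and 0.715 in pseudopodia, 0.434, 0.408 and 0.364 in cell bodies, and 0.425, 0.447 and 0.470 in whole cells.

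The 5 AP-2 subunits, which link cargo to clathrin, had positive log2 fold changes in all 3 comparisons, of which those of AP2A1, AP2A2 and AP2B1 turned negative on log2(TPM + 1) except for AP2A2 in cell body over whole cell. Of the 5, 1 passed the test in pseudopodia over cell body, 3 in pseudopodia over whole cell and 2 in cell body over whole cell. AP2S1, the small sigma subunit, had 136.1, 113.1 and 172.9 CPM in pseudopodia, 110.2, 93.57 and 90.02 CPM in cell bodies, and 56.6, 66.52 and 59.43 CPM in whole cells. The groups did not overlap. It was 2.31-fold higher in pseudopodia than in whole cells (log2 1.21 ± 0.16, adjusted p = 8.76e-05) and 1.61-fold higher in cell bodies than in whole cells (log2 0.69 ± 0.16, adjusted p = 0.00719), under all 23 settings. Its call in pseudopodia over cell body (log2 0.52 ± 0.16, adjusted p = 0.0249) held under 14 of 23 settings and was lost without pseudopodia replicate 1 or cell body replicate 2 or 3 (adjusted p = 0.0522 to 0.0948).

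AP2M1, the mu subunit that reads tyrosine sorting signals, had 618.4, 540.5 and 774.0 CPM in pseudopodia, 529.4, 495.8 and 516.6 CPM in cell bodies, and 370.4, 396.7 and 381.7 CPM in whole cells. Pseudopodia over whole cell gave log2 0.75 ± 0.14 (adjusted p = 0.000729, under all 23 settings), and cell body over whole cell 0.42 ± 0.14 (adjusted p = 0.0311), which was lost without any cell body or whole cell replicate (adjusted p = 0.0529 to 0.107). Over cell bodies, pseudopodia were at log2 0.33 ± 0.14 (adjusted p = 0.0844), called without pseudopodia replicate 2 (adjusted p = 0.0163). AP2A2, a large alpha subunit, was called in pseudopodia over whole cell alone (log2 0.45 ± 0.14, adjusted p = 0.0156), and the value became -0.01 with GC and length offsets and -0.03 on log2(TPM + 1). AP2A1 and AP2B1, the other large subunits, were at log2 0.19 and 0.20 in pseudopodia over cell body (adjusted p = 0.367 and 0.323).

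Of the coat accessory proteins, EPN1 stood out. EPN1 (chromosome 19, 55675226 to 55709858, plus strand) encodes epsin 1, a ubiquitin-binding adaptor that inserts a helix into the membrane. It had 359.0, 316.0 and 480.1 CPM in pseudopodia, 198.2, 201.3 and 171.3 CPM in cell bodies, and 162.8, 170.1 and 166.9 CPM in whole cells. All pseudopodia libraries were above all others, and cell bodies and whole cells lay next to each other. The rise was 2.02-fold over cell bodies (log2 1.02 ± 0.16, adjusted p = 0.000386) and 2.31-fold over whole cells (log2 1.21 ± 0.16, adjusted p = 6.19e-05), under all 23 settings, with 0.66 as the lowest value over cell bodies. EPN2, its paralog, had 36.35, 40.02 and 42.24 CPM in pseudopodia, 27.26, 48.76 and 50.46 CPM in cell bodies, and 32.8, 30.12 and 32.62 CPM in whole cells, which overlapped between pseudopodia and cell bodies (log2 -0.09 ± 0.20, adjusted p = 0.747).

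The remaining accessory genes moved little or varied between libraries. EPS15, a scaffold that binds AP-2, had 74.76, 88.49 and 27.27 CPM in pseudopodia, against 69.44 to 74.48 CPM in cell bodies and 84.16 to 89.53 CPM in whole cells, so that replicate 3 of the pseudopodia alone lay far down. EPS15L1, its relative, was called in pseudopodia over whole cell (log2 0.31 ± 0.12, adjusted p = 0.043), a call that held under 10 of 23 settings, was lost without pseudopodia replicate 1, cell body replicate 2 or any whole cell replicate (adjusted p = 0.0642 to 0.115), and turned to -0.15 on log2(TPM + 1). PICALM, which brings clathrin to the membrane and sorts small SNARE proteins, gave log2 -0.26 ± 0.15 in pseudopodia over cell body (adjusted p = 0.198) and -0.03 ± 0.15 over whole cell (adjusted p = 0.864).

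The 3 dynamins did not pass between pseudopodia and cell bodies (adjusted p = 0.113 for DNM1, 0.0667 for DNM2 and 0.765 for DNM3). DNM2, the dynamin found in most tissues, had 175.1, 159.9 and 239.8 CPM in pseudopodia, 138.4, 152.7 and 150.3 CPM in cell bodies, and 132.7, 131.1 and 129.1 CPM in whole cells. All pseudopodia libraries were higher than the rest, with log2 0.38 ± 0.15 over cell bodies and 0.55 ± 0.15 over whole cells (adjusted p = 0.00832). The value over whole cells became 0.06 with GC and length offsets (adjusted p = 0.365) and on log2(TPM + 1) (adjusted p = 0.673), and the value over cell bodies was called without pseudopodia replicate 2 (adjusted p = 0.0164). DNM1 had 107.0, 99.54 and 134.3 CPM in pseudopodia, 86.66, 104.2 and 85.53 CPM in cell bodies, and 103.7, 104.3 and 108.1 CPM in whole cells. Its groups overlapped, and 15 annotated pseudogenes bear its name, so its reads may be shared with copies.

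**Figure D3:**
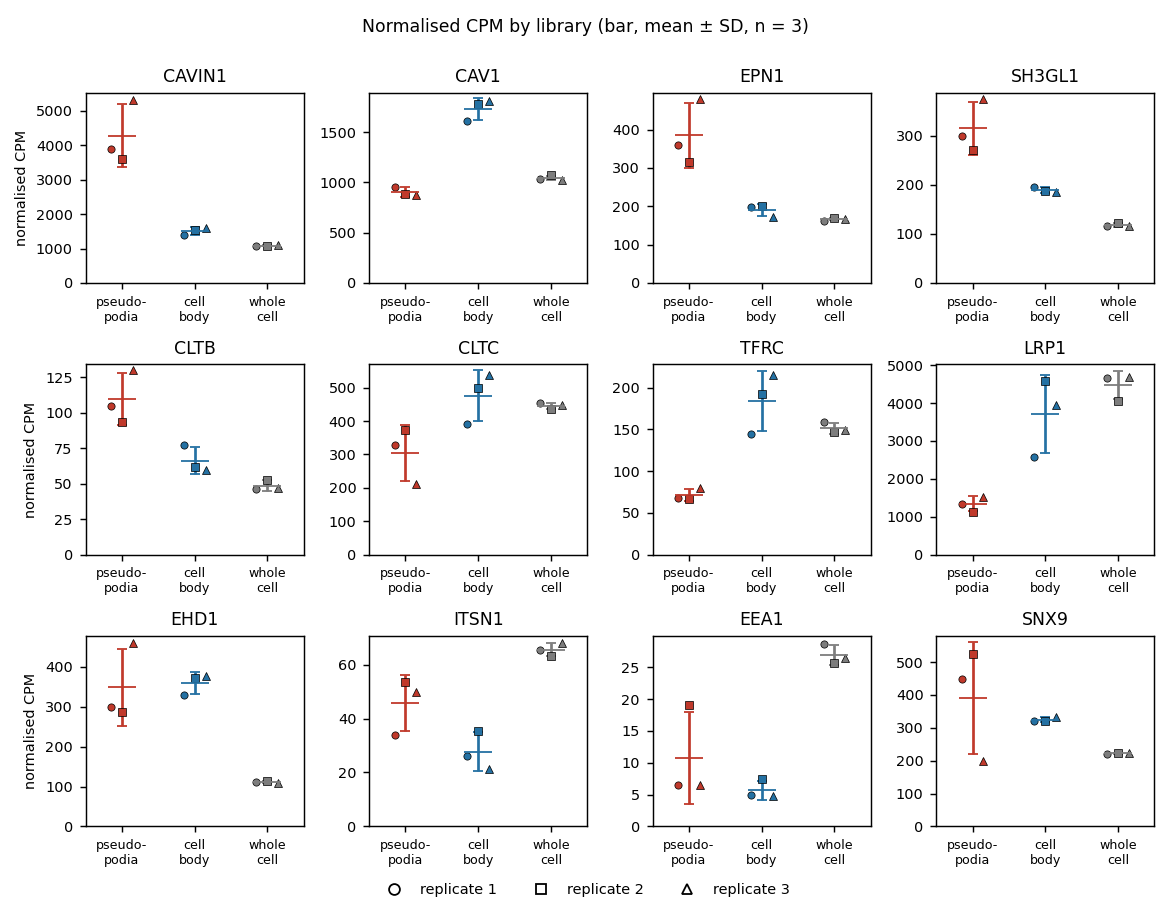
Normalised CPM (y axis from 0) of 12 genes in each library of pseudopodia (red), cell body (blue) and whole cell (grey), with marker shapes for replicates and bars for mean ± SD over n = 3. CAVIN1, EPN1, SH3GL1 and CLTB are highest in pseudopodia, TFRC and LRP1 lowest there, EHD1 is as high in cell bodies as in pseudopodia, and SNX9 spans 198.6 to 523.4 CPM among pseudopodia libraries.

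The scaffolds and membrane-shaping proteins held both firm and loose results. SH3GL1 (chromosome 19, 4360370 to 4400547, minus strand) encodes endophilin A2, a BAR-domain protein that curves membranes and recruits dynamin. It had 300.8, 270.5 and 375.1 CPM in pseudopodia, 196.1, 188.3 and 184.6 CPM in cell bodies, and 115.6, 123.1 and 117.2 CPM in whole cells, in 3 separate ranges. It was 1.66-fold higher in pseudopodia than in cell bodies (log2 0.73 ± 0.13, adjusted p = 0.00123), 2.66-fold higher than in whole cells (log2 1.41 ± 0.13, adjusted p = 7.16e-06), and 1.60-fold higher in cell bodies than in whole cells (log2 0.68 ± 0.13, adjusted p = 0.00276). All 3 calls held under all 23 settings. The gene has 3 annotated pseudogenes, which may share reads with it.

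The intersectins, large scaffolds that tie coat proteins to dynamin and to actin regulators, were lowest in cell bodies. ITSN1 had 34.08, 53.42 and 49.73 CPM in pseudopodia, 26.13, 35.52 and 21.33 CPM in cell bodies, and 65.4, 63.14 and 68.21 CPM in whole cells. Pseudopodia and cell body libraries overlapped slightly, and both were below every whole cell library. ITSN1 was 1.65-fold higher in pseudopodia than in cell bodies (log2 0.73 ± 0.21, adjusted p = 0.0162), 1.43-fold lower in pseudopodia than in whole cells (log2 -0.52 ± 0.21, adjusted p = 0.0457) and 2.37-fold lower in cell bodies than in whole cells (log2 -1.25 ± 0.21, adjusted p = 0.00104). The last call held under all 23 settings, with -0.65 at the smallest. The call over cell bodies was lost without pseudopodia replicate 3 or cell body replicate 3 (adjusted p = 0.0565 to 0.0612), and that of pseudopodia over whole cell without pseudopodia replicate 1 or 3, cell body replicate 1 or any whole cell replicate (adjusted p = 0.0707 to 0.178). ITSN2 had 9.921, 27.27 and 15.87 CPM in pseudopodia, 6.802, 9.821 and 5.029 CPM in cell bodies, and 26.71, 23.32 and 25.58 CPM in whole cells. It was 2.45-fold higher in pseudopodia than in cell bodies (log2 1.30 ± 0.36, adjusted p = 0.018), lost without pseudopodia replicate 3 or cell body replicate 1 or 3 (adjusted p = 0.0541 to 0.0556) and at 0.62 in limma-voom with sample weights (adjusted p = 0.128). In cell bodies it was 3.49-fold lower than in whole cells (log2 -1.81 ± 0.36, adjusted p = 0.00445), under all 23 settings.

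SNX9 and SNX18, sorting nexins that bind dynamin and curve membrane late in vesicle formation, differed in direction against whole cells. SNX9 had 450.0, 523.4 and 198.6 CPM in pseudopodia, 320.5, 319.4 and 334.2 CPM in cell bodies, and 220.0, 222.0 and 224.8 CPM in whole cells. The pseudopodia libraries lay on both sides of the other groups, with replicate 3 the lowest of all 9, and the call over whole cells (log2 0.81 ± 0.29, adjusted p = 0.0319) was lost without pseudopodia replicate 1 or 2 or any whole cell replicate (adjusted p = 0.0647 to 0.0948). Without pseudopodia replicate 3, SNX9 was called over cell bodies as well (adjusted p = 0.000369, log2 0.27 ± 0.28 with it), as was cell body over whole cell (adjusted p = 0.000276, log2 0.55 ± 0.28 with it). SNX18 had 33.91, 31.83 and 20.74 CPM in pseudopodia, 34.01, 37.0 and 39.28 CPM in cell bodies, and 60.53, 57.2 and 58.97 CPM in whole cells. It fell 2.04-fold in pseudopodia (log2 -1.03 ± 0.17, adjusted p = 0.000386) and 1.60-fold in cell bodies (log2 -0.68 ± 0.17, adjusted p = 0.00995) relative to whole cells, under all 23 settings, and 16 annotated pseudogenes carry its name.

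The last 3 scaffolds bind receptors, lipids or actin regulators. SH3KBP1, which binds CBL ubiquitin ligases and endophilins, had 67.25, 79.37 and 60.99 CPM in pseudopodia, 59.23, 69.36 and 59.99 CPM in cell bodies, and 47.96, 47.94 and 45.55 CPM in whole cells. It was higher than whole cells in pseudopodia (log2 0.55 ± 0.13, adjusted p = 0.00371) and in cell bodies (log2 0.42 ± 0.13, adjusted p = 0.0283), the second call lost without cell body replicate 2 or any whole cell replicate (adjusted p = 0.0656 to 0.107). On log2(TPM + 1) neither was called (adjusted p = 0.621 and 0.211). CD2AP, its relative, had 4.188, 15.6 and 3.819 CPM in pseudopodia, 5.637, 9.888 and 4.074 CPM in cell bodies, and 23.85, 22.02 and 21.69 CPM in whole cells. Both fractions were below whole cells, at log2 -1.51 ± 0.53 for pseudopodia (adjusted p = 0.0341) and -1.79 ± 0.54 for cell bodies (adjusted p = 0.028). The first was lost without pseudopodia replicate 1 or 3, cell body replicate 1 or any whole cell replicate (adjusted p = 0.0508 to 0.146) and became -0.55 with GC and length offsets (adjusted p = 0.197), and the second was lost without cell body replicate 1 or 3 or any whole cell replicate (adjusted p = 0.0636 to 0.0986). SYNJ1, the phosphatase that helps to uncoat vesicles, had 15.11, 21.69 and 4.977 CPM in pseudopodia, 7.727, 10.39 and 9.431 CPM in cell bodies, and 14.81, 13.37 and 14.22 CPM in whole cells, and was called over cell bodies only without pseudopodia replicate 3 (adjusted p = 0.000487) and in limma-voom (adjusted p = 0.00541).

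Of the EHD ATPases, which remodel caveolar and recycling membranes, EHD1 and EHD4 were higher in both fractions than in whole cells. EHD1 (chromosome 11, 64851642 to 64888296, minus strand), needed for receptor recycling, had 299.4, 288.1 and 459.9 CPM in pseudopodia, 328.7, 373.6 and 376.5 CPM in cell bodies, and 110.2, 114.8 and 110.0 CPM in whole cells. Pseudopodia and cell bodies overlapped, and all 6 of their libraries were above whole cells. EHD1 was 3.13-fold higher in pseudopodia (log2 1.64 ± 0.17, adjusted p = 1.53e-05) and 3.22-fold higher in cell bodies (log2 1.69 ± 0.18, adjusted p = 4.99e-05) than in whole cells, under all 23 settings. Pseudopodia over cell body gave log2 -0.04 ± 0.17 (adjusted p = 0.865), and -0.43 with GC and length offsets (adjusted p = 0.000513). It was also called without pseudopodia replicate 3 (adjusted p = 0.0271).

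EHD4 had 72.15, 63.87 and 87.15 CPM in pseudopodia, 81.45, 98 and 99.88 CPM in cell bodies, and 47.54, 48.45 and 48.97 CPM in whole cells. It was higher in pseudopodia (log2 0.62 ± 0.14, adjusted p = 0.00276) and in cell bodies (log2 0.95 ± 0.14, adjusted p = 0.00054) than in whole cells. The value for pseudopodia became 0.15 on log2(TPM + 1) (adjusted p = 0.301). Over cell bodies pseudopodia gave log2 -0.32 ± 0.14 (adjusted p = 0.0921), called in 8 of 23 settings, among them without pseudopodia replicate 3 (adjusted p = 0.00579). EHD2, at the caveolar neck, had 946.0, 853.1 and 1285.2 CPM in pseudopodia, 984.9, 1364.7 and 1082.2 CPM in cell bodies, and 1119.2, 1126.4 and 1138.5 CPM in whole cells, with all groups overlapping, and its value of -0.13 ± 0.17 against whole cells (adjusted p = 0.513) became -0.63 with GC and length offsets (adjusted p = 0.000213). EHD3 was at log2 0.20 ± 0.17 in pseudopodia over cell body (adjusted p = 0.366).

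The early endosome tethers varied widely between libraries. EEA1, the coiled-coil tether that marks early endosomes, had 6.542, 19.04 and 6.558 CPM in pseudopodia, 4.866, 7.383 and 4.744 CPM in cell bodies, and 28.66, 25.69 and 26.49 CPM in whole cells. All 6 fraction libraries were below the whole cell libraries, and pseudopodia replicate 2 stood above the other pseudopodia. EEA1 was 4.76-fold lower in cell bodies than in whole cells (log2 -2.25 ± 0.41, adjusted p = 0.003), under all 23 settings and at -1.25 with GC and length offsets. For pseudopodia over whole cell the log2 fold change was -1.33 ± 0.40 (adjusted p = 0.0169), lost without pseudopodia replicate 1 or 3 (adjusted p = 0.0542 to 0.0794) and at 0.05 with those offsets (adjusted p = 0.842). RABEP1, the RAB5 effector rabaptin-5, had 17.47, 34.82 and 23.38 CPM in pseudopodia, 10.9, 22.56 and 6.724 CPM in cell bodies, and 26.88, 22.88 and 23.39 CPM in whole cells. It passed in no comparison, but without cell body replicate 2 it was called higher in pseudopodia (adjusted p = 0.00463) and lower in cell bodies than in whole cells (adjusted p = 0.00716).

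The ESCRT-0 partners, which catch ubiquitinated receptors on endosomes, were called in opposite directions. HGS had 124.6, 122.1 and 167.8 CPM in pseudopodia, 97.63, 107.6 and 108.2 CPM in cell bodies, and 66.36, 68.04 and 64.52 CPM in whole cells, in 3 separate ranges. It was 2.08-fold higher in pseudopodia (log2 1.06 ± 0.14, adjusted p = 7.4e-05) and 1.58-fold higher in cell bodies (log2 0.66 ± 0.14, adjusted p = 0.00415) than in whole cells, under all 23 settings. Its call in pseudopodia over cell body (log2 0.40 ± 0.14, adjusted p = 0.0397) held under 10 of 23 and was lost without any cell body or whole cell replicate (adjusted p = 0.0583 to 0.0883). STAM had 17.1, 18.63 and 10.3 CPM in pseudopodia, 24.33, 25.53 and 27.02 CPM in cell bodies, and 25.15, 22.4 and 22.32 CPM in whole cells. All pseudopodia libraries were the lowest, 1.67-fold down relative to cell bodies (log2 -0.74 ± 0.20, adjusted p = 0.0117, under all 23 settings) and 1.52-fold relative to whole cells (log2 -0.60 ± 0.20, adjusted p = 0.0201). Its value over whole cells was -0.04 with GC and length offsets (adjusted p = 0.782) and was lost without whole cell replicate 1 (adjusted p = 0.0818).

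The retromer subunits VPS35, VPS26A and VPS29, which form the core that retrieves cargo from endosomes, had negative log2 fold changes in pseudopodia against both other groups. VPS35 had 95.82, 99.08 and 67.16 CPM in pseudopodia, 110.9, 117.5 and 134.9 CPM in cell bodies, and 115.2, 112.1 and 113.9 CPM in whole cells. The pseudopodia libraries were the lowest 3. It fell 1.39-fold relative to cell bodies (log2 -0.47 ± 0.15, adjusted p = 0.0321), a call lost without cell body replicate 2 or 3 or any whole cell replicate (adjusted p = 0.0536 to 0.129). VPS26A had 14.33, 26.99 and 7.465 CPM in pseudopodia, 39.9, 32.75 and 17.79 CPM in cell bodies, and 61.9, 58.57 and 57.74 CPM in whole cells. It was 3.65-fold lower in pseudopodia than in whole cells (log2 -1.87 ± 0.44, adjusted p = 0.00491), under all 23 settings and at -1.27 with GC and length offsets. Over cell bodies it gave log2 -0.89 ± 0.43 (adjusted p = 0.134) and was called without pseudopodia replicate 2 (adjusted p = 0.00991). VPS29 had 26.12, 28.09 and 13.81 CPM in pseudopodia, 37.81, 29.5 and 32.98 CPM in cell bodies, and 31.73, 33.06 and 31.44 CPM in whole cells, at log2 -0.56 ± 0.23 over cell bodies (adjusted p = 0.0736) and called without pseudopodia replicate 2 (adjusted p = 0.0266). With GC and length offsets, VPS35 and VPS29 changed sign against whole cells, to 0.23 and 0.14, with no call in either fit.

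The cargo receptors were low in pseudopodia. TFRC (chromosome 3, 196027183 to 196082189, minus strand), the transferrin receptor that brings in iron through clathrin-coated pits, had 68.05, 66.23 and 80.24 CPM in pseudopodia, 144.1, 192.9 and 214.6 CPM in cell bodies, and 159.0, 146.5 and 149.0 CPM in whole cells. LRP1 (chromosome 12, 57128493 to 57213351, plus strand), a large scavenger receptor that also binds the PDGF receptor, had 1349.5, 1138.1 and 1532.1 CPM in pseudopodia, 2570.6, 4585.3 and 3941.2 CPM in cell bodies, and 4672.5, 4055.3 and 4689.2 CPM in whole cells. For both genes every pseudopodia library was below every other library, while cell bodies and whole cells overlapped. TFRC fell 2.57-fold relative to cell bodies (log2 -1.36 ± 0.16, adjusted p = 4.8e-05, under all 23 settings) and 2.12-fold relative to whole cells (log2 -1.08 ± 0.16, adjusted p = 0.00013, but -0.41 with GC and length offsets, adjusted p = 0.11). LRP1 fell 2.76-fold relative to cell bodies (log2 -1.47 ± 0.20, adjusted p = 0.000175) and 3.34-fold relative to whole cells (log2 -1.74 ± 0.20, adjusted p = 2.85e-05), under all 23 settings.

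Most other receptors taken up by cells were lower in pseudopodia than in cell bodies. A list of 17 genes, of which 15 were tested, held lipoprotein, mannose 6-phosphate, sortilin-family and collagen receptors together with the ubiquitin ligases CBL, CBLB and CBLC. Between pseudopodia and cell bodies 12 of the 15 fell at an adjusted p under 0.05 (edgeR) and the other 3 were not called, with a median log2 fold change of -0.92, beside 19.9% of all genes called lower. Those not called were LRP6 and the ligases CBL and CBLB, so 12 of the 13 receptors tested were called lower. Across the 23 alternative settings 9 to 13 were lower and at most 1 was higher. Against whole cells 12 of the 15 were lower and 3 higher in pseudopodia (median log2 -0.85), beside 33.1% and 27.9% of all genes. Under the alternatives 9 to 12 were lower and 2 to 3 higher in that comparison.

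MRC2, the collagen receptor Endo180, had 385.0, 321.2 and 426.5 CPM in pseudopodia, 1068.3, 1295.7 and 1240.7 CPM in cell bodies, and 1093.9, 1055.4 and 1123.0 CPM in whole cells (log2 -1.67 ± 0.14 over cell bodies, adjusted p = 4.25e-06). M6PR, the small mannose 6-phosphate receptor, had 24.13, 23.16 and 24.94 CPM in pseudopodia, 54.5, 63.32 and 67.85 CPM in cell bodies, and 43.29, 42.58 and 42.06 CPM in whole cells (log2 -1.36 ± 0.12, adjusted p = 8.18e-06). LRP12 gave log2 -1.57 ± 0.15 (adjusted p = 1.18e-05) and SORL1, at under 2 CPM in every library, -1.24 ± 0.32 (adjusted p = 0.00938). In each of these receptors the pseudopodia libraries were below all cell body libraries.

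The wider pathway, listed as 147 related genes of which 140 were tested, held 38 genes that rose (27.1%) and 20 that fell (14.3%) in pseudopodia relative to cell bodies, against 18.6% and 19.9% of all genes. Among 31 clathrin coat and accessory genes 13 rose and 1 fell (median log2 0.34). Of 9 genes listed as caveola and F-BAR, a list that also held ARHGAP10 and ARHGAP26, 6 rose and the others were not called (median log2 0.60). The cavins tested in that list were CAVIN4, described below, and CAVIN2, which averaged 2.429 CPM in pseudopodia and 2.32 CPM in cell bodies. Of the 25 genes of retromer, sorting nexins and WASH 6 rose and the others were not called, of 22 ESCRT genes 5 rose and 3 fell, of 18 genes of other adaptor complexes 4 rose and 1 fell, and of 20 genes for early endosome and phosphoinositide proteins 4 rose and 3 fell. On log2(TPM + 1) the related genes had 23 higher and 41 lower calls (background 11.9% and 30.4%), and with library totals alone in edgeR 37 higher and 25 lower (background 3066 and 4504 of 19426 genes). Against whole cells 50 related genes were higher and 37 lower in pseudopodia (background 27.9% and 33.1%), and 22 were higher and 18 lower in cell bodies (background 18.1% and 20.5%). With library totals alone these counts were 38 higher and 48 lower in pseudopodia, and 18 higher and 24 lower in cell bodies. Of all 19426 genes, that scaling called 4201 higher and 7806 lower in pseudopodia, and 2715 higher and 4829 lower in cell bodies. Without pseudopodia replicate 2, 35 related genes were lower in pseudopodia than in cell bodies, beside 4561 of all 20154 genes tested. In cell body over whole cell the higher calls were 43 without pseudopodia replicate 3 and 14 without whole cell replicate 3, and the lower calls 9 to 11 without cell body replicate 1 or 3 or any whole cell replicate. Of all genes tested in those fits, 4988 of 20371 and 2436 of 20096 were higher. Lower were 2711 to 3269 of 19872 to 20374.

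The related genes furthest up in pseudopodia over cell bodies were SNX8, STON2, GGA2 and CAVIN4, each of which held its call under every alternative that gave it a value. SNX8, a sorting nexin of endosome-to-Golgi transport, had 466.0, 423.5 and 617.5 CPM in pseudopodia, 29.93, 32.25 and 32.96 CPM in cell bodies, and 22.32, 22.75 and 21.48 CPM in whole cells (log2 3.99 ± 0.16 over cell bodies, adjusted p = 4.21e-08). GGA2, a Golgi-localised clathrin adaptor, had 389.8, 361.6 and 536.8 CPM in pseudopodia, 51.06, 60.54 and 60.57 CPM in cell bodies, and 54.75, 53.34 and 53.27 CPM in whole cells (log2 2.90 ± 0.17, adjusted p = 4.21e-07). For both genes pseudopodia stood far above cell bodies and whole cells. Cell bodies and whole cells overlapped for GGA2, while for SNX8 every cell body library was above every whole cell library.

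STON2, an AP-2 partner that sorts synaptotagmin, had 73.35, 83.61 and 55.47 CPM in pseudopodia, 9.184, 10.1 and 8.69 CPM in cell bodies, and 30.97, 30.42 and 31.46 CPM in whole cells (log2 2.93 ± 0.17, adjusted p = 3.94e-07). Its cell body libraries were below the whole cell libraries (log2 -1.73 ± 0.16, adjusted p = 1.99e-05). CAVIN4, a cavin known from muscle, was far less abundant, at 3.249, 5.259 and 2.18 CPM in pseudopodia, 0.9081, 1.095 and 0.7835 CPM in cell bodies, and 2.635, 2.435 and 3.018 CPM in whole cells (log2 1.95 ± 0.30, adjusted p = 0.00042).

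Against whole cells, SNX8 (log2 4.50), GGA2 (3.00), NUMBL (2.21) and SYNJ2 (2.13) were furthest up in pseudopodia, and EPN3 (-2.60), FCHO2 (-2.30), PIK3C2A (-1.83) and USP8 (-1.75) furthest down. The first 6 were called under every alternative that gave them a value. EPN3 was near the floor, averaging 0.142 CPM in pseudopodia, 0.21 CPM in cell bodies and 0.821 CPM in whole cells. On log2(TPM + 1) its value shrank to -0.74 in pseudopodia and to -0.63 in cell bodies over whole cells. PIK3C2A and USP8 were called under 19 of 23 each and lost without pseudopodia replicate 1 or 3 (adjusted p = 0.0607 to 0.0819 and 0.0505 to 0.096). With GC and length offsets the values were smaller, at log2 -1.19 for FCHO2 and -0.81 for PIK3C2A (adjusted p = 0.00135 and 0.0485), and USP8 was no longer called at -0.86 (adjusted p = 0.0564). In cell bodies over whole cells, CHMP1B (1.79), VPS37B (1.74) and SYNJ2 (1.32) were among those furthest up and EPN3 (-1.94), FCHO2 (-1.79), USP8 (-1.77) and STON2 (-1.73) were furthest down. Of these, FCHO2 was lost without cell body replicate 3 (adjusted p = 0.0608), and USP8 without pseudopodia replicate 3, cell body replicate 1 or 3 or any whole cell replicate (adjusted p = 0.0527 to 0.0837). With GC and length offsets FCHO2 was at -1.07 (adjusted p = 0.00401) and USP8 at -0.94 with no call (adjusted p = 0.0524).

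**Figure D4:**
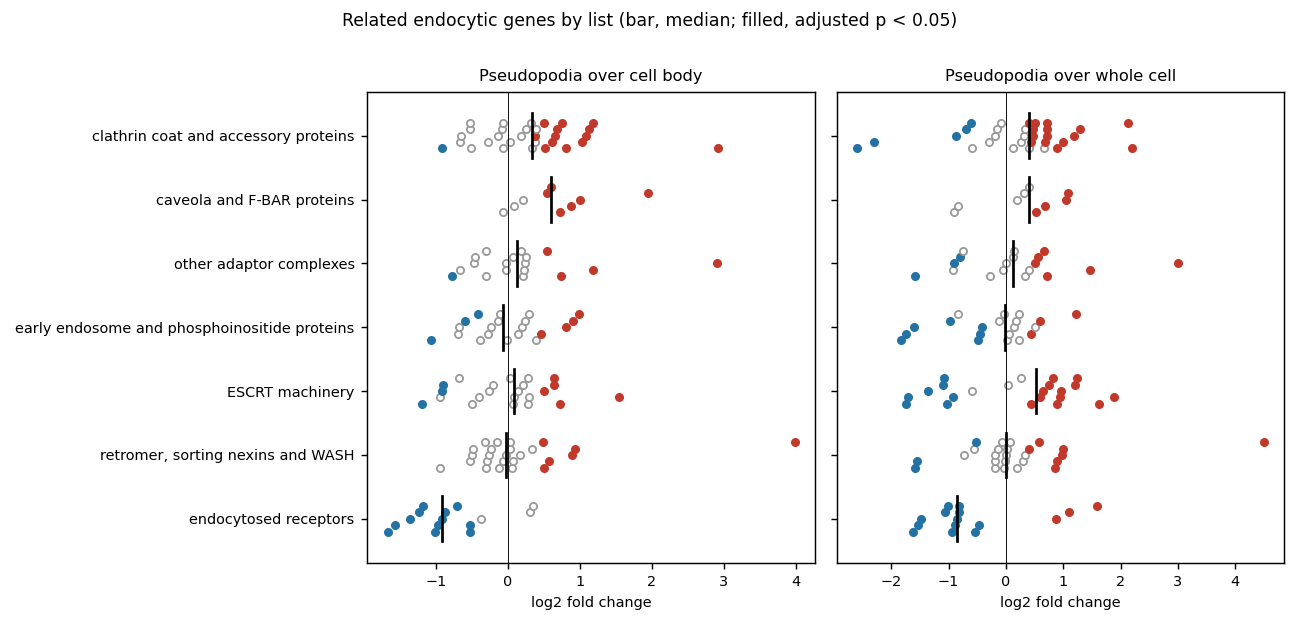
Log2 fold change (x axis) of each of 140 related genes, by list (y axis), in pseudopodia over cell body and pseudopodia over whole cell; filled points passed an adjusted p of 0.05 and bars are medians. The endocytosed receptors lie mostly to the left, with a median of -0.92 over cell bodies, and SNX8 is the point furthest right, at 3.99 and 4.50.

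Differences between the pseudopodia libraries followed base composition among the 41 genes. Their annotated transcripts held from 34.9% GC for EEA1 to 67.1% for CAVIN3, and a stretch of 60 bases from the middle of the coding sequence is shown for the 2 genes lowest and the 2 highest in transcript GC, with G and C in capitals (GRCh38, GENCODE release 29, read 5′ to 3′ on the coding strand; EEA1 on chromosome 12 minus, CD2AP on 6 plus, SH3GL1 on 19 minus, CAVIN3 on 11 minus).
EEA1: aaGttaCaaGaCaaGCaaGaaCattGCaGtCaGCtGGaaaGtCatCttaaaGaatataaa
CD2AP: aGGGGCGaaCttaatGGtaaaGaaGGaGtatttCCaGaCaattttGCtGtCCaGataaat
SH3GL1: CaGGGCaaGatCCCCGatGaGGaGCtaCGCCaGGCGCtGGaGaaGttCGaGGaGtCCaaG
CAVIN3: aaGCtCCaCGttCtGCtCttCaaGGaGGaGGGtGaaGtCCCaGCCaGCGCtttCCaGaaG
These stretches held 33.3% GC in EEA1, 38.3% in CD2AP, 61.7% in SH3GL1 and 56.7% in CAVIN3, so their order is not that of the transcripts. The whole coding sequences held 38.3% GC in EEA1, 40.4% in CD2AP, 61.8% in SH3GL1 and 70.8% in CAVIN3. Replicate 3 of the pseudopodia was above the mean of replicates 1 and 2 in all 14 genes with a GC content of 55% or more, in 7 of 13 between 45% and 55%, and in 1 of 14 under 45%, on the log2 scale. Across the 41 genes, which share these libraries and are not independent replicates, that difference and GC content had a Pearson r of 0.78. For replicate 2 minus the mean of replicates 1 and 3 it was -0.80. Over all genes with a GC value, the deviation of a library from its group mean had an r with GC content of 0.57 in replicate 3, -0.56 in replicate 2 and -0.13 in replicate 1 of the pseudopodia, and of -0.05 to 0.07 in the other 6 libraries. The genes whose pseudopodia libraries spread most, CAV2 at 4.45-fold, SYNJ1 at 4.36-fold, CD2AP at 4.08-fold, VPS26A at 3.62-fold and EPS15 at 3.24-fold, all had transcripts under 45% GC.

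Calls among the 41 genes differed with GC content, as they did among all genes. Of the 14 genes under 45% GC, 4 were lower in pseudopodia than in cell bodies and 6 lower than in whole cells, and the others were not called. Of all 6716 genes in that range, 9.59% were higher and 25.1% lower than in cell bodies, and 11.9% higher and 48.7% lower than in whole cells. Of the 14 at 55% or more, 6 were higher and 1 lower than in cell bodies, and 10 were higher and 1 lower than in whole cells. Of all 5409 genes in that range, 28.2% were higher and 15% lower than in cell bodies, and 43.7% higher and 20% lower than in whole cells. LRP1, at 60.1% GC, was the lower one in both. The Pearson r of log2 fold change with GC content across the 41 genes was 0.27 for pseudopodia over cell body, 0.66 for pseudopodia over whole cell and 0.54 for cell body over whole cell, against 0.19, 0.31 and 0.26 across the 18675 genes with a GC value. The offsets for GC content and length were fitted to each library's deviation from the mean of all 9 libraries. They therefore take out differences between groups that follow GC content or length, as well as those between libraries of a group. Whether such differences between groups are technical was not tested. With these offsets, pseudopodia had 9 genes called up and 9 down relative to cell bodies, against 20.4% and 23.5% of all genes in that fit. Relative to whole cells, 15 were up and 6 down in pseudopodia (background 31.3% and 32.6%), and 17 up and 6 down in cell bodies (background 25.7% and 21.5%). Under those offsets CAVIN1, EPN1, SH3GL1 and CLTB stayed called higher and LRP1, TFRC, CAV1 and STAM called lower in pseudopodia over cell body.

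**Figure D5:**
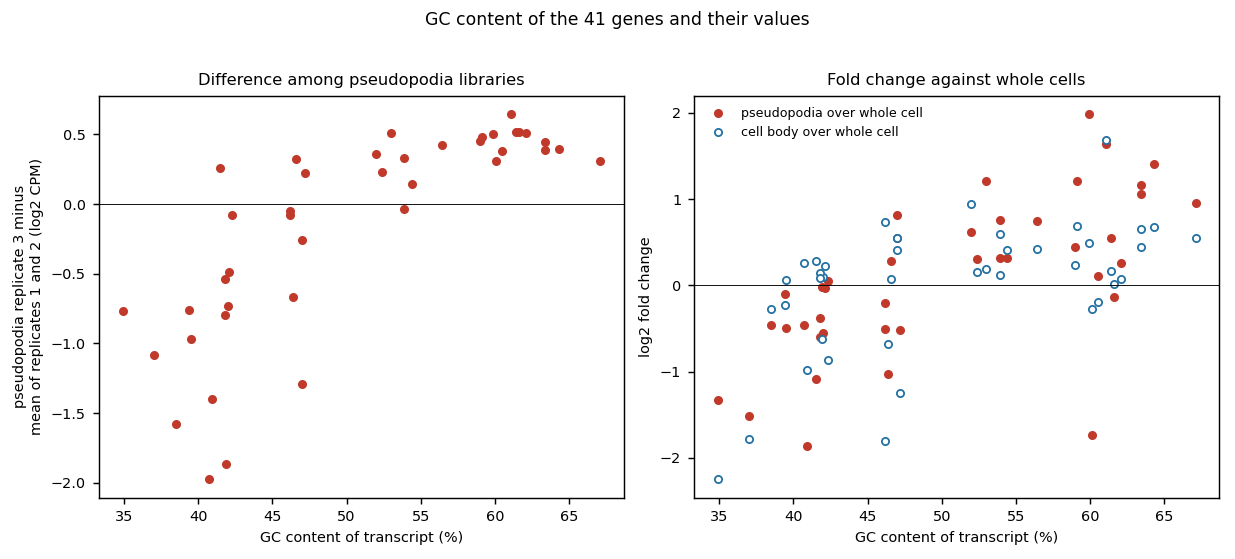
Left, log2 CPM of pseudopodia replicate 3 minus the mean of replicates 1 and 2 (y axis) against the GC content of the transcript (x axis, %) for the 41 genes, with r = 0.78. Right, log2 fold change of pseudopodia over whole cell (filled) and of cell body over whole cell (open) against GC content, with r = 0.66 and 0.54.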

How the data were processed

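RNA libraries from 3 groups of 3 were compared. The authors deposited a table of read counts, whole numbers for each gene, which per the labels came from featureCounts. TPM for each library were also deposited by the authors and matched the counts up to 1 constant per library and 1 length per gene. The submitters' processing notes name GRCh38 as the build and DESeq2 as a tool. Aligner, annotation release, strand setting and versions are not given in the sources, so genes with pseudogenes, paralogs or overlapping or antisense partners (DNM3 among them) are uncertain. A blank line was left out of the count table.

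Testing used the quasi-likelihood method of edgeR 4.0.16 under R 4.3.3, with TMM factors, robust fitting and edgeR's expression filter by group, in 1 fit of all 9 libraries. P-values were adjusted by Benjamini-Hochberg over all 19426 genes and called under 0.05. Because spread differed between groups while 1 spread per gene was fitted, p-values may be too small where pseudopodia are compared. They may be too large in cell body over whole cell, so that a gene not called there may still differ. In that comparison 3521 genes were called higher and 3980 lower in the fit of all 9 libraries. With only the 6 libraries compared, 5270 were called higher and 5464 lower. CPM are scaled by library total and TMM factor. The test was checked on simulated counts with 67 genes changed 1.5-fold, 67 changed 2-fold and 66 changed 4-fold. Of these it called 2.99%, 34.3% and 89.4% in pseudopodia over cell body (18729 genes run), 2.99%, 43.3% and 93.9% in pseudopodia over whole cell (18751) and 2.99%, 46.3% and 92.4% in cell body over whole cell (18808). Of the genes left unchanged, the test called 8, 8 and 11 in the same order of comparisons. The simulation capped the spread per gene, changed only genes above a count floor and kept all other genes equal between groups. In the data, 18.6% of genes were called higher and 19.9% lower in pseudopodia over cell body, so these rates may not carry over. How the test behaves where spread differs between groups, or where so many genes differ, was not tested. GC content and length came from 1 annotated transcript per gene, which need not be the one expressed.

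Alternatives, 23 in all, were other scalings and filters, DESeq2 1.42.0, limma 3.58.1 (voom with sample weights, log2(TPM + 1), log2(TPM + 0.1)), only the 6 libraries compared, a replicate block, GC content and length offsets, both together, and each library left out. Named were all 41 genes and, of the related genes, the 4 highest and 4 lowest called in each comparison. Of these, 1 gene is not reported here. CBL, CBLB and LRP6 were named after their values were seen. The genes and lists were chosen with earlier results of these data known.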

Additional observations from a re-analysis of the deposited data

How the results depend on the processing

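Over the 41 genes and the named related genes, 2863 of 3374 values under an alternative stayed as they were in direction and call. Of the others, 201 lost and 149 gained a call with the same direction. In 139 the direction changed with no call in the main edgeR fit or the alternative. In 22 it changed with a call in either fit. Counts of calls are not part of this tally. With GC content and length offsets, alone and with the replicate block, pseudopodia over whole cell turned to 0.29 for CLTC, -0.24 for AP2A1, -0.012 for AP2A2, -0.386 and -0.389 for DNM1, 0.877 and 0.879 for DNM3, 0.525 for PICALM, and 0.049 and 0.015 for EEA1. CAVIN3 over cell bodies turned to -0.025 and -0.032. On log2(TPM + 1) and log2(TPM + 0.1), pseudopodia over whole cell turned to -0.027 and -0.028 for AP2A2, -0.355 and -0.364 for DNM1, and -0.15 and -0.158 for EPS15L1. The cause was not tested. The offsets are void for no member, since all 41 had a GC value, as had 96.1% of genes tested.

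In pseudopodia over cell body, higher calls among the 41 genes went to 4 on both TPM scales and with only the 6 libraries, and lower calls to 13 in limma-voom and 12 on both TPM scales. Of all genes tested, 2613 of 17827 were higher with only the 6 libraries. On log2(TPM + 0.1) 2297 were higher and 6090 lower of 19426. In pseudopodia over whole cell there were 10 higher and 17 lower on both TPM scales and 15 lower in limma-voom, and in cell body over whole cell 8 lower on log2(TPM + 1) and with 6 libraries. For related genes, pseudopodia over cell body gave 23 higher on both TPM scales and 39 lower in limma-voom, 41 on log2(TPM + 1) and 39 on log2(TPM + 0.1). Pseudopodia over whole cell gave 26 higher on both TPM scales, and 24 lower with no low-count filter, 64 on log2(TPM + 1) and 63 on log2(TPM + 0.1). Of all genes tested, 6495 of 37196 were lower with no low-count filter, and 9571 of 19426 on log2(TPM + 0.1). Cell body over whole cell gave 51 higher and 38 lower in limma-voom, 47 and 33 with 6 libraries, 46 higher with the offsets and 40 with offsets and block. Beside these, 5270 of 18842 genes were higher and 5464 lower with 6 libraries. Higher were 4791 of 18675 with the offsets and 4423 with offsets and block. On log2(TPM + 1) the median of all genes moved by -0.12, -0.22 and -0.08 in these comparisons, and with library totals alone by -0.11, -0.24 and -0.13.

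Leaving out 1 library, higher and lower calls among the 41 genes ran from 4 to 11 and 4 to 8 in pseudopodia over cell body, 14 to 18 and 5 to 12 in pseudopodia over whole cell, and 7 to 15 and 4 to 7 in cell body over whole cell. For related genes they ran from 34 to 45 and 17 to 35, 43 to 58 and 28 to 41, and 14 to 43 and 9 to 25, in the same order of comparisons. Among all 19872 to 20407 genes tested they ran from 2892 to 4020 and 3142 to 4561 in pseudopodia over cell body. They ran from 4747 to 5741 and 5440 to 6978 in pseudopodia over whole cell, and from 2338 to 4988 and 2711 to 5411 in cell body over whole cell. Same-numbered libraries of different groups deviated together with r of -0.081 to 0.09, and libraries with different numbers with r of -0.176 to 0.144. These values cannot show whether the numbers pair the libraries. Deviations in pseudopodia replicates 2 and 3 followed GC content, and the whole cell libraries varied little. With a replicate block the 41 genes had 8 higher and 5 lower in pseudopodia over cell body, 15 and 9 in pseudopodia over whole cell, and 11 and 7 in cell body over whole cell, and CAVIN3, HGS and VPS35 were no longer called over cell bodies (adjusted p = 0.089, 0.0619 and 0.051). Of all 19426 genes, that fit called 3267 higher and 3653 lower, 5131 and 6363, and 3051 and 3747, in the same order of comparisons. With 3 libraries a group, smaller changes than those called may have been missed.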
